A study of Mus musculus with 6 samples.

Results

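Gm-numbered genes are mouse gene models that were predicted from the genome or from transcripts and carry a serial number in place of a name. They were taken here as rows whose symbol is Gm followed by digits and whose raw CPM (counts scaled by the library total), averaged over all 6 libraries, were 5 or more. This rule gave 309 genes of 21286 in the table, out of 3302 Gm-numbered rows, and left 2993 below the limit. The members were chosen by their level averaged over both groups, so the levels themselves are description. The difference between the groups was not itself part of the choice, but a gene could pass through the group where it was high. The lowest gene inside was Gm26530 at 5.02 CPM, followed by Gm43860 at 5.03 and Gm3985 at 5.04. The highest outside were Gm37309 at 4.99 CPM, Gm3650 at 4.98 and Gm14137 at 4.95.

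The libraries came from total RNA of the lateral ganglionic eminence (LGE), the embryonic source of striatal and olfactory bulb neurons, dissected at embryonic day 16.5. There were 3 libraries from wild type littermates and 3 from Dlx1/2 -/- mutants, which lack the neighbouring homeobox genes Dlx1 and Dlx2. Both groups shared a mixed background of C57BL/6J, 129S6 and CD1. The comparison asks which RNAs of the eminence depend on the pair of transcription factors. Nothing in the labels states that the libraries of a group derive from different embryos. The p-values therefore describe the spread between these libraries. Sex-linked genes, given below, differed between libraries of each group, so a group held RNA of at least 2 embryos.

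A Gm number says nothing of function. It can stand for a long noncoding RNA beside a named gene, for a transcript on the opposite strand of one, for a piece of RNA within an intron, or for a pseudogene, which is a copy of another gene, often pasted back into the genome from its spliced RNA. Long noncoding RNAs that share a start region with a neuronal gene are often transcribed in the same cells as that gene. Pseudogenes of ribosomal protein genes and nuclear copies of mitochondrial DNA are common in mammalian genomes, and short reads from them are hard to tell from reads of the source gene.

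The sequences below show why position and likeness matter for these genes. The first is the stretch between the starts of Gm14204, the most strongly lowered gene of the set, and Slc32a1, the vesicular GABA transporter gene. It is written along the strand of Gm14204, from 30 bases inside the first exon of Slc32a1 to 50 bases inside Gm14204, at chr2:158610674-158610796 on the minus strand (RefSeq promoter table, GRCm38.p6), and the capitals mark the 43 bases that lie between the first bases of the genes.
Gm14204 and Slc32a1 starts: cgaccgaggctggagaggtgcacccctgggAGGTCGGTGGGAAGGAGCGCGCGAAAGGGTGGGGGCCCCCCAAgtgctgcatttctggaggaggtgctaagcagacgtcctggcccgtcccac
The second is the first exon of Gm20421, at chr4:154961523-154961678 on the minus strand (GENCODE M21, GRCm38), with capitals for the 150 of its 156 bases that are complementary to the coding sequence of Hes5, a Notch target and repressor of neuronal differentiation.
Gm20421 first exon: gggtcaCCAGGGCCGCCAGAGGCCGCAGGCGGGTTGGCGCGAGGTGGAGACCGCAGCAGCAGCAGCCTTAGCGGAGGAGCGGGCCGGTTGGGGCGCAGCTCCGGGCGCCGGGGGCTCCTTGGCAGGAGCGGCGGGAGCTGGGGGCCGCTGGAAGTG
The third pair are the 5′ ends of the noncoding transcripts of Gm27032, at chr2:180894105-180894184, and Gm12063, at chr11:24076559-24076638, both on the plus strand, which have no name by which to recognise them. They are shown whole in lower case, 80 bases each, because these RNAs fell furthest after Gm14204 among the genes called below.
Gm27032 5′ end: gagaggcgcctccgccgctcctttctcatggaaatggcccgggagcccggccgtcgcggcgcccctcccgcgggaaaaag
Gm12063 5′ end: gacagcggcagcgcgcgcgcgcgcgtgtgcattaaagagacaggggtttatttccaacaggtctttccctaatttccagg

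The next pairs show how closely some Gm genes follow the gene they copy. Each pair is 60 bases of coding sequence with the differing bases in capitals, and positions are counted from 1 at the 5′ end of the printed stretch with the named gene's base first. Gm4737 copies Ahcy, the enzyme that hydrolyses S-adenosylhomocysteine, with 6 differing bases in 2083 aligned, and C22T and C40T lie in this stretch.
Ahcy: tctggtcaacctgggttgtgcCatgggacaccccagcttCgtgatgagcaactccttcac
Gm4737: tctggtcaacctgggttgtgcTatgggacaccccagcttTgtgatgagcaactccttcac
Gm6472 copies Rps7, a protein of the small ribosomal subunit, with 4 differing bases in 651 aligned, of which T20G and G42A are shown.
Rps7: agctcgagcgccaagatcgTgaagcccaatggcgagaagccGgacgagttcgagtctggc
Gm6472: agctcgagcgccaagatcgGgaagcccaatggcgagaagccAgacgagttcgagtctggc
Gm20775, annotated on the Y chromosome, copies Rmi1, a gene of DNA repair, with 5 differing bases in 1851 aligned, of which A15G and G47A are shown.
Rmi1: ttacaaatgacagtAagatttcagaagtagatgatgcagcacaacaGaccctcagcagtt
Gm20775: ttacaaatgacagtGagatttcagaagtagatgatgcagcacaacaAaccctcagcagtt

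The libraries held 10711630 to 16588359 counts. In the mutant libraries Dlx1 lay between 109 and 138 CPM against 831 to 898 in wild type, and Dlx2 between 15.5 and 18.7 against 419 to 471. The labels do not name the exons that the mutation removes. Of 9 LGE marker genes 7 fell and 1, Gsx2, rose, with a summed level of 3013 to 3195 CPM in wild type and 1261 to 1365 CPM in mutant libraries. Of 4 hypothalamic markers found, 2 were tested and 1 was called higher, Otp, at 0.325 to 0.966 CPM in wild type and 420 to 481 CPM in the mutant, while Sim1 and Nkx2-2 stayed at or under 1.10 CPM in every library. The hypothalamic sum of 1.04 to 2.17 against 422 to 484 CPM was thus nearly all Otp. Of 4 pallial markers tested 2 were called higher, Neurod2 and Neurod6. The list sum was 20.4 to 65.1 CPM in wild type and 91.6 to 145 CPM in mutant libraries, with Emx1 and Slc17a7 at or near 0. Tbr1 (5.74 to 19.9 CPM in wild type, 4.21 to 9.75 in mutant libraries) and Eomes (5.45 to 14.6, 1.57 to 5.95) were not called. Sums of some other lists also did not overlap between the groups (wild type first). The MGE sum was 203 to 370 and 434 to 481 CPM (1 of 4 higher, 1 lower). Its rise came from Sst, at 13.1 to 19.98 and 182 to 257 CPM. Lhx8 fell from 6.60 to 16.1 CPM to 1.38 to 1.65 CPM, and Nkx2-1 and Lhx6 were not called. The oligodendrocyte lineage sum was 63.3 to 98.6 and 113 to 128 CPM (2 of 4 higher). The microglia sum was 43.0 to 53.2 and 55.3 to 66.9 CPM. Of its 5 markers none was called by edgeR, 1 by DESeq2 and 3 had an unadjusted edgeR p under 0.05. The meningeal and mural sum was 118 to 124 and 129 to 141 CPM, with Pdgfrb called higher and Col1a1 lower. The choroid plexus sum was 0.383 to 0.650 and 0.183 to 0.316 CPM, with no marker tested. The part of these other cell types in the results below was not tested. Wild type replicate 1 and mutant replicate 3 had Xist at 4028 and 4582 CPM and 4 Y-linked genes at 0 to 0.287 CPM, while the other 4 libraries showed the reverse, so 1 of 3 libraries in each group stood apart in sex-linked genes.

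Most of the 309 genes were read at low levels. The median was 12.9 CPM, 121 genes lay under 10 CPM and 32 reached 100 CPM. On the scale of the authors' FPKM, which divides by length, the median gene stood at 5.95, and 105 genes reached 10. By the annotation (GENCODE M21), 82 were protein coding, 55 pseudogenes, 47 lincRNAs (RNAs between genes), 34 antisense RNAs, 38 other noncoding RNAs and 43 TEC models, a class for transcripts still awaiting an experimental test. A further 10 gene IDs were not found in it. Pseudogenes had the highest median FPKM, 39.2, against 6.41 for protein coding, 5.81 for lincRNA, 3.55 for antisense and 3.45 for TEC models. Later annotation gave 17 of the genes another symbol, among them Gm5607 (Sox1ot), Gm15800 (Hectd4), Gm608 (Usf3), Gm996 (Ajm1) and Gm17296 (Tarbp1).

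A level of 5 CPM was reached in both groups by 271 genes, in wild type only by 9 and in the mutant only by 29. The latter 38 entered through the group where they were high. For 18 genes the mean over the remaining libraries was under 5 CPM once the highest library was set aside. The members as a whole took 1.82% ± 0.0248 (SD, n = 3) of all counts in wild type and 1.75% ± 0.0281 in mutant libraries. The mutant share was lower by 0.0725 percentage points, and the groups did not overlap (exact two-sided permutation p = 0.1, the smallest that 3 against 3 libraries allow). By parts defined below, the 15 genes that copy a ribosomal protein gene differed by -0.0391 percentage points. The 8 that copy a mitochondrial gene differed by -0.0299. The 94 genes with neither a copy nor shared exon bases went the other way, by 0.00711 (p = 0.6 in the same permutation test).

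All 309 genes passed the filter on low counts and were tested together with the whole table, 15326 genes, by edgeR's quasi-likelihood test with Benjamini-Hochberg adjustment. A gene is called here when its adjusted p is under 0.05. Of the 309, 74 were called, or 23.9%, beside 24.0% of all genes tested. The share was thus near the background, which was 26.2% among genes at 5 CPM or more, the level at which the set was chosen. Of the called genes 45 were higher in the mutant (14.6% of the set, backgrounds 11.2% of all genes and 12.3% at 5 CPM or more) and 29 were lower (9.39%, backgrounds 12.8% and 13.9%). The groups did not overlap in 73 of the 74 (23.6%, backgrounds 23.9% and 26.1%). A change of at least 2-fold was reached by 17 called genes (5.50%), below the 6.88% of all genes and above the 4.99% of genes at 5 CPM or more. Of the 17, 11 were higher (3.56%, backgrounds 2.84% and 1.96%) and 6 lower (1.94%, backgrounds 4.04% and 3.04%). Among the 11, at least Gm20421, Gm37694, Gm38071, Gm16702 and Gm3411 were under 5 CPM in every wild type library. They passed the level limit only through the mutant libraries, so their rise is tied to the choice of genes. The median log2 fold change of the set was 0.008, beside 0.003 over all genes tested. In this whole-tissue RNA, fewer cells that make a transcript and less transcript per cell cannot be told apart.

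Other sets served for comparison. Of 354 genes that carry a RIKEN clone number and reach 5 CPM, 82 were called (23.2%), 44 higher and 38 lower. Of 27 long noncoding RNAs with a proper name that could be tested, 12 were called (44.4%), 5 higher and 7 lower. They included Dlx6os1, the RNA that overlaps the Dlx5 and Dlx6 enhancers, which fell from 680 ± 63.6 to 4.81 ± 0.978 CPM. They also included Miat, a nuclear RNA of neurons, which rose by 1.06 on the log2 scale, from 1702 ± 61.2 to 3538 ± 198 CPM. Among the 7 lower was Dlx1as, which spans the mutated gene Dlx1 on the opposite strand, with a log2 fold change of -2.13. Six3os1 was at -2.84. The list was chosen gene by gene, so its share does not stand for named noncoding RNAs in general. Levels here and below are CPM after TMM scaling, with the SD over 3 libraries per group.

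Called genes were found in every annotation class, beside shares of 11.2% higher and 12.8% lower over all genes tested. Of 47 lincRNAs 10 were higher (21.3%) and 5 lower (10.6%), with a class median log2 fold change of 0.052. Of 82 protein coding models 12 were higher (14.6%) and 9 lower (11.0%), median -0.037. Of 55 pseudogenes 4 were higher (7.27%) and 9 lower (16.4%), median -0.109. Of 34 antisense RNAs 6 were higher (17.6%) and 2 lower (5.88%), and of 38 other noncoding RNAs 6 (15.8%) and 3 (7.89%). Of 43 TEC models 6 were higher (14%), a share near the background. No TEC model was called lower by edgeR or by DESeq2, and 2 were lower at an unadjusted p under 0.05 in edgeR. Differences between the classes were not tested.

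**Figure D1:**
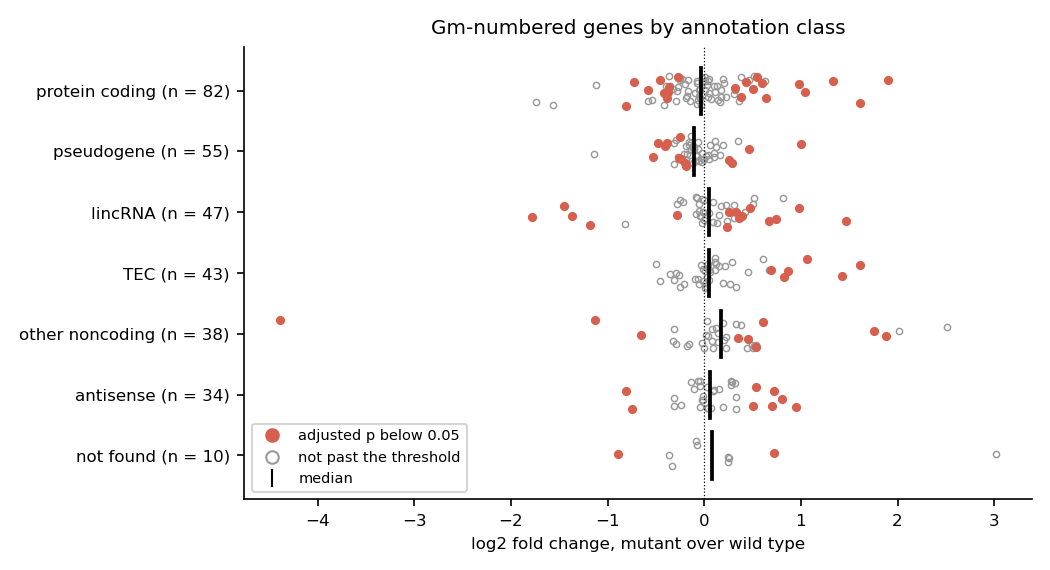
Log2 fold change (mutant over wild type, horizontal axis) of each of the 309 genes by annotation class, filled where the adjusted p was under 0.05, with a bar at each class median. The medians lie between -0.109 (pseudogenes) and 0.171 (other noncoding), and Gm14204 stands alone at -4.39.

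Gm14204 had the largest change among the 309. It measured 205, 198 and 199 CPM in the wild type libraries and 9.69, 10.3 and 8.81 CPM in the mutant ones. The mutant level was 20.9-fold lower, a log2 fold change of -4.39 (SE 0.0659, adjusted p = 1.06e-07), and no mutant library came near a wild type one. The gene is annotated as a processed transcript at chr2:158595472-158610723 on the minus strand. Its start lies 44 bp from that of Slc32a1 on the other strand, as in the sequence above. Slc32a1, which loads GABA into synaptic vesicles, measured 132, 137 and 124 CPM in wild type and 3.60, 5.31 and 3.08 CPM in mutant libraries, a log2 fold change of -5.03. Both genes of the divergent pair thus fell in every mutant library.

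Among called genes, the next falls in size were smaller by far than that of Gm14204. Gm27032, a lincRNA at chr2:180894105-180895220, measured 57.0, 57.2 and 52.9 CPM in wild type and 15.7, 16 and 16.8 CPM in mutant libraries. Its log2 fold change was -1.78 (SE 0.0464, adjusted p = 2.37e-06). Its nearest gene in the table, Gm14342, 4445 bp away, was not called (log2 fold change 0.50). Gm27032 was thus lowered without a like change in its neighbour, and its libraries were tight in both groups.

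Gm12063, a lincRNA at chr11:24076559-24077367, ends 689 bp before the start of Bcl11a, a zinc finger transcription factor of forebrain neurons, on the same strand. It measured 20.5, 22.0 and 24.3 CPM in wild type and 6.83, 9.24 and 8.49 CPM in mutant libraries, a log2 fold change of -1.45 (SE 0.148, adjusted p = 1.48e-04). Bcl11a fell by 0.94 on the same scale, from 603 ± 13.4 to 315 ± 9.04 CPM. Gm15663, which overlaps the first part of Tmtc2 on the opposite strand at chr10:105573953-105583874, measured 10.7, 9.55 and 7.66 against 3.11, 5.63 and 3.96 CPM. Its log2 fold change was -1.13 and that of Tmtc2, an endoplasmic reticulum protein, -1.41. In each of these pairs the lincRNA or antisense RNA and the named gene were both lower in all 3 mutant libraries.

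The remaining falls of this kind were smaller. Gm15328, 6475 bp from Cdh2 (N-cadherin), measured 10.3 ± 0.793 CPM in wild type and 4.52 ± 0.855 CPM in mutant libraries and so fell by 1.19 on the log2 scale, while Cdh2 fell by 0.26 on that scale. Gm43445, an RNA within an intron of Lmo4, a LIM-only transcription cofactor, measured 6.41, 6.63 and 6.34 against 4.27, 3.35 and 4.72 CPM, a log2 fold change of -0.65 beside -0.89 for Lmo4. Gm43445 lost its call when wild type replicate 2 or 3 or mutant replicate 1 or 2 was left out (adjusted p up to 0.0706). Gm42742, which shares exons with Prrt2, a presynaptic protein gene, fell by 0.81 and Prrt2 by 1.36 on the log2 scale. Gm16172 lies antisense to Tmem63b and fell by 0.81, and Gm2415, antisense to Ctdspl, fell by 0.74. Ctdspl itself was at -0.25 and was not called. Gm17296, now Tarbp1, an RNA methyltransferase gene, fell by 0.73, and Gm21967, not found in the annotation, by 0.90.

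**Figure D2:**
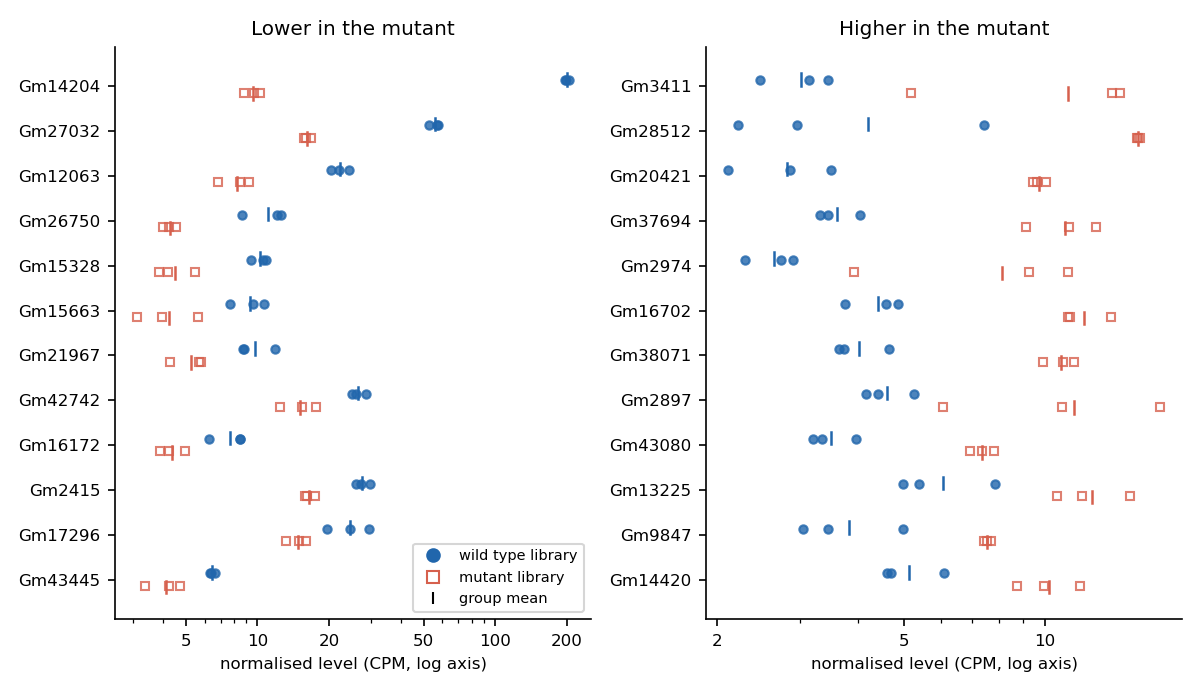
Level in each library (CPM after TMM scaling, log axis) of the 12 genes with the largest falls and the 12 with the largest rises among called genes whose groups do not overlap, wild type as dots, mutant as squares, with short bars at the group means. Gm14204 drops from 198 to 205 CPM to 8.81 to 10.3 CPM, and no rising gene exceeds 7.85 CPM in wild type.

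Among the rises, the antisense RNA of Hes5 moved together with its partner. Gm20421, at chr4:154960770-154961678, measured 2.10, 2.86 and 3.5 CPM in wild type and 9.45, 9.62 and 10.1 CPM in mutant libraries, a log2 fold change of 1.75 (SE 0.209, adjusted p = 2.76e-04). Hes5 rose by 1.81 on the same scale, from 33.6 ± 3.43 to 118 ± 8.11 CPM. Of the printed first exon of Gm20421, 150 of 156 bases lie over coding sequence of Hes5. No source used here gives the strand setting of the authors' counting, so reads of either strand cannot be told apart, here and for every antisense gene named.

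A further Gm gene rose at the gene of another neural progenitor factor. Gm5607, now Sox1ot, an RNA that overlaps Sox1 on the same strand, had the highest FPKM among the called noncoding genes that have no copy. It measured 340, 295 and 321 CPM in wild type and 494, 467 and 492 CPM in mutant libraries, a log2 fold change of 0.61 (SE 0.0647, adjusted p = 2.41e-04). Sox1, a transcription factor that marks neural progenitors, rose from 314 ± 20.9 to 548 ± 15.8 CPM, 0.80 on the log2 scale. Gm13111, an antisense model at chr4:154637576-154644724 beside Prdm16, a progenitor and adipose transcription factor, rose by 0.54 and Prdm16 by 0.94. Gm37608, within the locus of AI854517, rose from 14.9 ± 2.47 to 26.2 ± 2.48 CPM, 0.82 on the log2 scale. Gm38057, inside Tcf12, a bHLH factor gene, rose by 0.87 beside 0.51 for Tcf12. Gm13111 and Gm38057 were chosen after their values were seen.

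A pair of TEC models on chromosome 16 marked the Mir99ahg locus, the host transcript of microRNAs of the miR-99 and let-7 families. Gm37694 (chr16:77685277-77687409) measured 3.44, 3.31 and 4.04 CPM in wild type and 12.9, 9.11 and 11.3 CPM in mutant libraries, a log2 fold change of 1.61. Gm38071 (chr16:77416624-77420001) measured 3.73, 3.64 and 4.65 against 11.0, 9.93 and 11.6 CPM, a log2 fold change of 1.42. Mir99ahg itself rose by 0.99, from 4.86 ± 1.23 to 9.65 ± 1.08 CPM, and 9430053O09Rik, which overlaps Gm38071, by 1.44. All mutant libraries lay above all wild type ones for both models.

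The other large rises were of varied kinds. Gm28512, an RNA of the sense intronic class, measured 2.97, 2.21 and 7.42 CPM in wild type and 16, 15.8 and 15.8 CPM in mutant libraries, a log2 fold change of 1.88 (SE 0.522, adjusted p = 0.00717). Wild type replicate 3 stood above the other wild type libraries, and all mutant libraries stood above it. Gm16702, a lincRNA opposite the T2 gene, measured 4.59, 4.87 and 3.74 against 13.8, 11.3 and 11.2 CPM, a log2 fold change of 1.47. Gm43080, within Mccc1, a subunit of a mitochondrial carboxylase of leucine breakdown, rose by 1.07 and Mccc1 by 0.77. Gm29260, a lincRNA at chr1:41781808-41939560 with no other table gene within 50 kb, measured 8.32, 7.60 and 5.97 against 15.8, 14.9 and 12.1 CPM, a log2 fold change of 0.98. Gm29260 was chosen after its values were seen.

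An adjacent pair of lincRNA models on chromosome 17, Gm26917 (chr17:39843013-39846341) and Gm42418 (chr17:39846958-39848788), lies in a stretch known for ribosomal RNA sequence. Gm26917 measured 11.3, 11.4 and 10.9 CPM in wild type and 16.6, 17.6 and 19.3 CPM in mutant libraries, a log2 fold change of 0.67. Gm42418 measured 21.3, 21.7 and 27.5 against 33.2, 46.4 and 38.5 CPM, a log2 fold change of 0.74. Both were higher in every mutant library, and the amount of ribosomal RNA left in each library was not measured here. This pair too was chosen after its values were seen.

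A sequence motif was searched in the starts of the named called genes. TAATTA, the core bound by homeodomain proteins such as those of the Dlx family, reads alike on both strands and was searched in 300 bases, from 250 before to 50 after the start. RefSeq promoters (GRCm38.p6) were matched for 10 of the 30 called genes that the naming rule gave, among them Gm14204, Gm15663, Gm16702 and Gm5607. None of the 10 windows held TAATTA. It was held by 5.3% of all 32817 promoter windows of that length. Over the whole set 68 genes matched, with 77 windows of which 3 held it.

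Since many of these genes lie inside or beside a named gene, each was set against its nearest table gene outside the set within 50 kb. Such a neighbour was found for 255 genes, and it overlapped the Gm gene on the opposite strand in 89 cases and on the same strand in 78. The neighbour was tested in 222 pairs. Gm gene and neighbour had the same sign of change in 137 pairs (61.7%), beside 53.9% for the 8210 other genes at 5 CPM or more and their nearest genes. In 25 pairs both were called, and 24 of the 25 moved in the same direction, beside 351 of 500 such pairs among the other genes. The exception was Gm26786, which rose by 0.48 on the log2 scale within Smpd3, a neutral sphingomyelinase gene at -0.47.

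Across the 222 pairs the log2 fold changes had a Pearson r of 0.59 and a Spearman rho of 0.37. Gm14204 with Slc32a1 lay far from the other points, and r was not computed without it. The points share libraries, and overlapping pairs can share reads. By relation, 57 of 84 pairs on opposite strands and 41 of 76 on the same strand had the same sign. Among the 54 pairs that were neither overlapping nor divergent it was 35 of 54, with a Pearson r of 0.17. In the 8 divergent pairs it was 4 of 8, and Gm14204 was the 1 called gene among them.

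**Figure D3:**
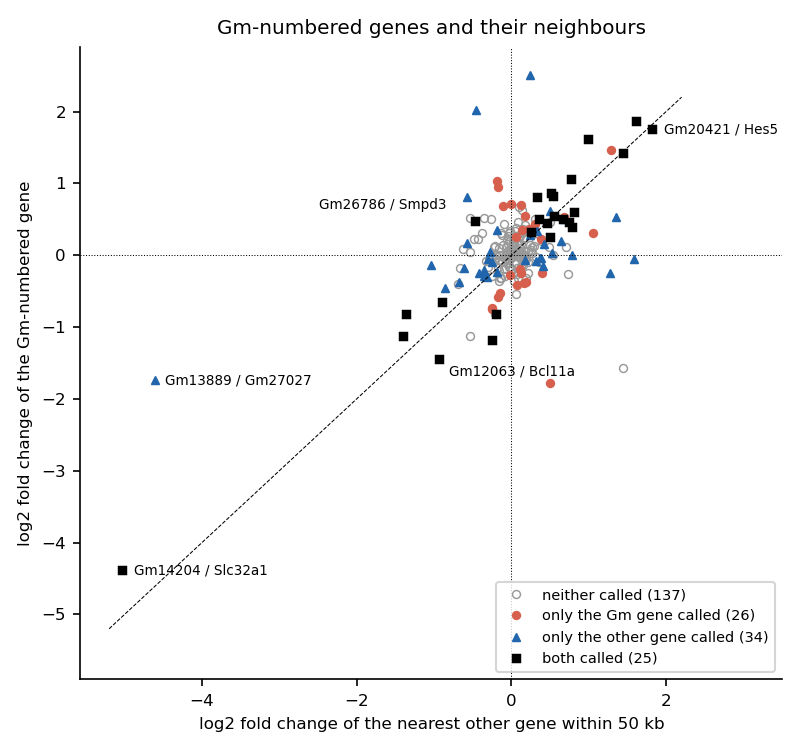
Log2 fold change of each Gm-numbered gene (vertical) against that of its nearest table gene outside the set within 50 kb (horizontal), for 222 pairs, with the line of equal change dashed. The 25 pairs with both genes called moved in the same direction, from Gm14204 with Slc32a1 to Gm20421 with Hes5, except for Gm26786 with Smpd3.

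Near-identical copies made up a large part of the set. A transcript with at least 95% identity over at least 50% of its length to a gene elsewhere in the table was found for 93 genes. Of these 27 were called, 11 higher and 16 lower. A further 112 genes had no copy but shared exon bases with another gene, and 20 were called (17.9%), 14 higher and 6 lower. The 94 genes with neither gave 25 called (26.6%), 19 higher (20.2%) and 6 lower (6.38%). Backgrounds for higher and lower calls were 11.2% and 12.8% of all genes, and 12.3% and 13.9% at 5 CPM or more. For these 94, no other gene of the table shared exon bases or a near-identical transcript by these limits. Introns were not compared, so a model within an intron of another gene can count among the 94. Whether reads of such a model come from unspliced RNA of that gene was not tested.

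Of the 88 genes whose copy was tested, 66 had the same sign of change as the copy and 75 lay within 0.5 of it on the log2 scale. The log2 fold changes of these pairs had a Pearson r of 0.35 and a Spearman rho of 0.49. In 59 of the 88 pairs the Gm gene had the higher FPKM of the pair. Gm10036, a pseudogene of Rpl11, stood at a mean of 279 FPKM against 1.56 for Rpl11 itself, and Gm15500 at 299 against 9.84 for Rpl5. How the authors' counting assigned reads between near-identical copies was not tested, so a value of either gene alone is uncertain. Of 25 called genes with a tested copy, the copy was also called in 12, in the same direction in 10.

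Ribosomal protein genes were the largest family copied. Of 15 Gm genes that copy one, 8 fell (53.3%, backgrounds 12.8% of all genes and 13.9% at 5 CPM or more) and none was called higher by edgeR or DESeq2, nor was one higher at an unadjusted p under 0.05. Their median log2 fold change was -0.265. The 81 named ribosomal protein genes tested, a wider list than the sources of the 15, gave 23 lower (28.4%), 3 higher (3.70%) and a median of -0.202. Calls were thus mostly lower among the named ribosomal protein genes too. Gm6472 measured 383, 394 and 382 CPM in wild type and 293, 280 and 312 CPM in mutant libraries, a log2 fold change of -0.39 (SE 0.0466, adjusted p = 9.83e-04). Rps7, from which it differs by 4 bases, fell by 0.51. Gm8730 and its source Rplp0 fell by 0.26 and 0.24, and Gm5428, now Rpl6l, and Rpl6 by 0.24 and 0.32. With the counts of each copy and its source added, the 15 log2 fold changes ran from -0.52 to 0.19 with a median of -0.31.

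Nuclear copies of mitochondrial DNA took the highest levels in the set by CPM and by FPKM. Gm28437, Gm10925, Gm28661, Gm28439 and Gm29216 stand side by side on chromosome 1 and copy mt-Co3, mt-Atp6, mt-Co2, mt-Nd4 and mt-Co1, subunits of the respiratory chain. Gm28437 measured 1650, 1857 and 1839 CPM in wild type and 1676, 1649 and 1564 CPM in mutant libraries. Gm10925 was at 1664 ± 44.8 and 1553 ± 50.2 CPM, while mt-Atp6, with which it is identical over the aligned length, was listed at a lower mean FPKM, 314 against 2370. None of the 8 genes that copy a mitochondrial gene was called by edgeR or DESeq2, and 1 had an unadjusted p under 0.05 in edgeR. Their log2 fold changes lay between -0.13 and 0.05. With wild type replicate 1 left out, Gm28437 was called lower by edgeR (log2 fold change -0.187, adjusted p = 0.0330).

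In a few pairs copy and source went apart, and these were chosen after their values were seen. Gm4737 measured 51.4, 47.6 and 43.5 CPM in wild type and 34.0, 32.3 and 37.7 CPM in mutant libraries, a log2 fold change of -0.45 (SE 0.096, adjusted p = 0.00847). Ahcy measured 12.7, 12 and 13.3 against 23.5, 23.2 and 25.3 CPM, a log2 fold change of 0.92. Each gene was called and neither overlapped between groups, yet the sum of both changed by -0.04. The printed stretch shows 2 of the 6 bases that tell these genes apart.

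Gm6768, a processed pseudogene on chromosome 12, measured 36.7, 43.6 and 51.4 CPM in wild type and 62.0, 63.9 and 56.8 CPM in mutant libraries, a log2 fold change of 0.47. Its source Ncoa4, the receptor that delivers ferritin to lysosomes, measured 30.4, 26.1 and 18.8 against 10.2, 9.68 and 9.06 CPM, a log2 fold change of -1.37. The summed change was 0.03. Here too the counts moved in opposite directions while their total stayed level. Gm9847 behaved otherwise: it rose by 1.01 and its source Socs2, a brake on cytokine signalling, by 1.09, from 69.8 to 149 CPM.

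Other copies were called where their source was not, and the difference between copy and source was not tested. Gm10031, a copy of the kinase gene Csnk2a1, measured 160, 150 and 155 CPM in wild type and 94.8, 120 and 95.6 CPM in mutant libraries, a log2 fold change of -0.58, and Csnk2a1 was at -0.01. Gm26750, a lincRNA that lies over a minus-strand copy of Aida, measured 12.5, 12.1 and 8.63 against 4.27, 4.56 and 4.03 CPM, which is -1.37 as a log2 fold change (adjusted p = 9.22e-04), with Aida at -0.03. Gm26825, a lincRNA over a minus-strand copy of the chaperone gene Hspa8, fell from 886 ± 9.12 to 731 ± 26.3 CPM, by 0.28 on the log2 scale, beside -0.20 for Hspa8, which was not called. Whether these reads belong to the Gm gene or to its source was not tested.

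**Figure D4:**
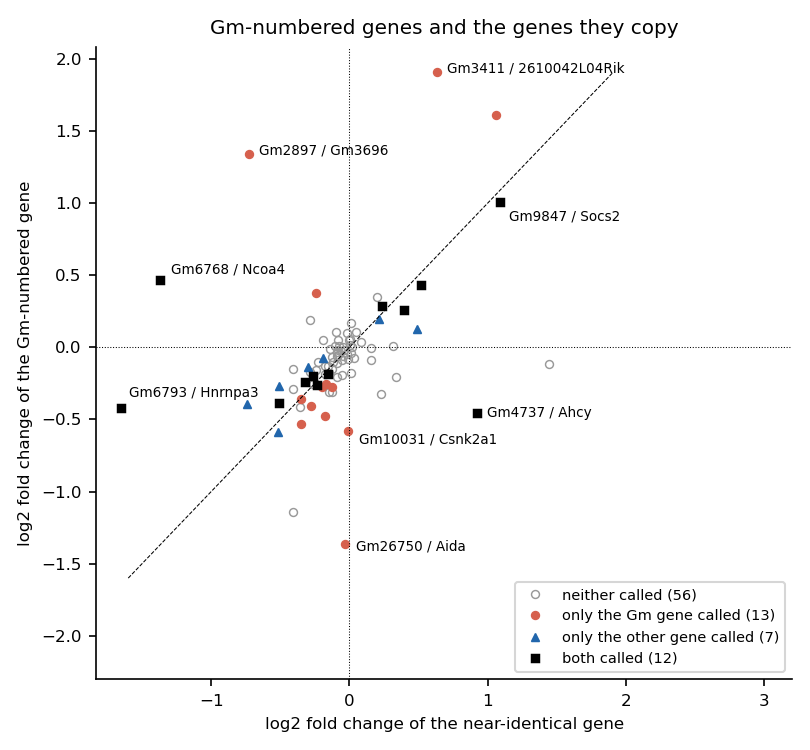
Log2 fold change of each Gm-numbered gene (vertical) against that of the near-identical gene elsewhere in the genome (horizontal), for 88 pairs, with the line of equal change dashed. Most pairs lie near the diagonal, while Gm4737 with Ahcy and Gm6768 with Ncoa4 lie in the quadrants of opposite change with both genes called.

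Gm20775 shows the limit of such assignments. It is the only gene of the set annotated on the Y chromosome and measured 9.95, 10.6 and 9.23 CPM in wild type and 10, 9.11 and 8.55 CPM in mutant libraries. The 2 libraries with next to no counts of Y-linked genes, wild type replicate 1 and mutant replicate 3, were thus at 9.95 and 8.55 CPM, beside 9.11 to 10.6 CPM in the other 4. Rmi1, with 99.73% identity over the aligned bases, was at 21.3 and 18.3 CPM in the means of the groups. On the X chromosome lay 9 genes of the set, among them Gm27000, a 99.88% identical copy of part of the noncoding RNA Meg3, which was not called.

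Families with many near-identical members gave less even values. On chromosome 14, Gm3411, Gm2974 and Gm2897 each had 28 or 29 genes above the identity limit. All 3 were called higher, beside 11.2% of all genes and 12.3% of those at 5 CPM or more. Gm3411 measured 3.44, 2.47 and 3.14 CPM in wild type and 14.5, 5.19 and 14 CPM in mutant libraries, a log2 fold change of 1.91 (SE 0.504, adjusted p = 0.00957). Gm2897 measured 5.26, 4.42 and 4.16 against 17.7, 6.07 and 10.9 CPM. Mutant replicate 2 was the lowest of its group in all 3 genes, and the calls of Gm2974 and Gm2897 were lost when wild type replicate 2, mutant replicate 1 or mutant replicate 3 was left out, and that of Gm2897 also without wild type replicate 1 or 3 (adjusted p up to 0.0922 for Gm2897). On chromosome 2, a cluster of 10 zinc finger models had a median log2 fold change of 0.349. Called higher were 3 (30.0%, same backgrounds), Gm14305 by 0.63, Gm14325 by 0.59 and Gm14420 (Zfp970) by 0.98. No gene of that cluster was called lower by edgeR or DESeq2, nor lower at an unadjusted p under 0.05. Over all genes 12.8% were called lower, so none among 10 genes carries little weight. Both clusters were singled out after their values were seen.

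Some genes of the set varied widely between replicates of a group. In 20 genes (6.47%) the SD exceeded 0.4 of the mean in at least 1 group, beside 266 of 11712 tested genes at 5 CPM or more (2.27%). Of the 20, 4 were called, and 12 shared exon bases with another gene. Gm28062, not found in the annotation, measured 3.44, 22.7 and 2.35 CPM in wild type and 113, 2.66 and 121 CPM in mutant libraries. Its log2 fold change of 3.02 was the largest rise in the set and was not called (adjusted p = 0.108), and mutant replicate 2 lay within the wild type range. Without mutant replicate 2 its adjusted p was 0.0185.

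Single libraries also set the values of Gm21986, within the Med12 locus, at 3.25, 3.83 and 3.5 CPM in wild type and 4.75, 53.1 and 3.14 CPM in mutant libraries. Gm28037, which overlaps Rpl24, measured 0.191, 3.31 and 5.25 against 4.69, 32.5 and 1.07 CPM, so mutant replicate 2 was again the high one. In Gm13889 wild type replicate 1 was the low one, with 10.9, 105 and 90 CPM in wild type and 18.7, 22.3 and 21.2 CPM in mutant libraries. Gm20431, which overlaps Ube2v1, measured 63.4, 45.7 and 66.0 against 47.5, 7.85 and 3.59 CPM. Gm608, now Usf3, was at 106 and 92.5 CPM in mutant replicates 1 and 2 and at 19.7 CPM in mutant replicate 3. None of these 5 genes was called by edgeR.

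**Figure D5:**
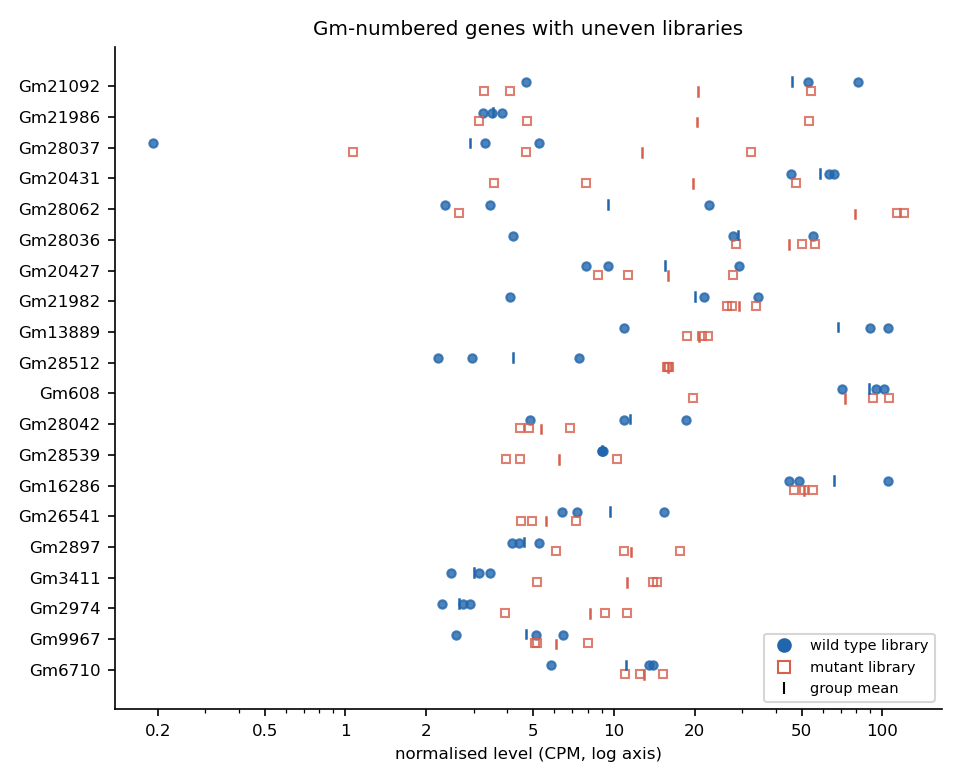
Level in each library (CPM after TMM scaling, log axis) of the 20 genes whose SD exceeded 0.4 of the mean in a group, wild type as dots, mutant as squares, with short bars at the group means. In most of them a single library of a group stands apart, as in Gm21986 at 53.1 CPM in mutant replicate 2.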

How the data were processed

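RNA of 3 wild type and 3 Dlx1/2 -/- LGE samples was measured by RNA-seq. The authors deposited 1 table with raw counts per gene and library, FPKM values and group means of FPKM, and a p-value per gene whose test is not stated, per the file headers. The submitters' processing notes list 2 builds, mm10 and GRCm38.p4, and the tools edgeR, StringTie 1.3.0 and HISAT2 2.0.4. No source used here gives the counter, annotation release or strand setting, which matters for copied and antisense genes.

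From the counts (3 counts equal 0.181 to 0.287 CPM per library), edgeR 4.0.16 in R 4.3.3 (filterByExpr by group, TMM, glmQLFit, glmQLFTest, two-sided) was run on the whole table (Benjamini-Hochberg adjusted p under 0.05), and the script was tested on simulated data. SEs come from log2 library values with 0.5 counts added. Position and class come from GENCODE M21 (GRCm38), with 299 of 309 gene IDs found. Copies were sought with BLAST 2.17.0. DESeq2 1.42.0 was an alternative, beside RLE scaling, no filter, a replicate block, leaving out each library, other level limits, 2-fold and a threshold of 0.01. The replicate numbers do not pair the samples. Genes named are Gm14204, the 12 largest rises and falls among called genes whose groups do not overlap, the 8 highest, the 2 highest of each class, those at the limit, and neighbours of the first 25, of which 1 is not reported here. Where neighbours tied, the one with the higher mean CPM was taken, a rule added later. The members and lists were chosen with earlier results of these data known.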

Additional observations from a re-analysis of the deposited data

How the results depend on the processing

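Of the 309 genes 74 were called, 45 higher and 29 lower. RLE scaling (73), no filter on low counts (71) and the DESeq2 Wald test (72) changed the count little. These were 23.6%, 23.0% and 23.3% of the set. Of all genes tested, 23.9% of 15326, 16.5% of 21286 and 19.8% of 17153 were called. The share of the set thus lay above that of all genes with no filter and with DESeq2, where more genes were tested. The count was 17 (11 higher, 6 lower) at 2-fold or more and 42 (27 higher, 15 lower) at an adjusted p under 0.01, both narrower by construction. Members at 2 CPM or more gave 114 called of 574 (66 higher, 48 lower) and those at 10 CPM or more 52 of 188 (29 higher, 23 lower). Without genes that overlap another gene's exons, 47 of 177 were called (26 higher, 21 lower). The shares at 2 CPM, at 10 CPM and without such overlap were 19.9%, 27.7% and 26.6%. Beside them stand 24.0% of all genes tested and 26.2% of those at 5 CPM or more. Leaving out 1 library at a time gave 54 to 73 called, 34 to 43 higher and 19 to 32 lower. Of all genes tested, 16.8% to 22.9% were called in these fits, beside 24.0% with all libraries. The 19 lower calls, without mutant replicate 2, were fewer by over 1.5 times. Calls over all genes were at their lowest share, 16.8%, in the same fit, and the cause was not tested. With the replicate number as a block 63 were called (39 higher, 24 lower), or 20.4% beside 17.5% of all genes. Same-numbered libraries, however, did not deviate together (correlations of -0.176, 0.043 and -0.168). Under that block Gm43445 and Gm15500 missed the threshold (adjusted p 0.0603 and 0.0659) and Gm16586 passed it (0.0334). Of 30 named called genes 4 lost the call in at least 1 setting other than 2-fold or 0.01. The share of counts on the set differed by -0.0878 to -0.0593 percentage points without 1 library each. The log2 fold changes of Gm28439 and Gm16536, both near 0, turned sign: leaving out 1 library each gave -0.0186 to 0.0595 for Gm28439 (below 0 without wild type replicate 1, and at -0.0119 without mutant replicate 1) and -0.0640 to 0.0468 for Gm16536 (above 0 without wild type replicate 2, and at 0.0123 without mutant replicate 2). Within 10 kb, 21 pairs were called in the same direction. In depth, 3 counts equal 0.181 to 0.287 CPM per library.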

Other observations

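Gm14205, a Gm-numbered gene below the level limit, lies inside Slc32a1 on the opposite strand, which is the strand of Gm14204. It was read at 0.861, 1.23 and 1.33 CPM in the wild type libraries and had no count in the mutant ones. The strand setting of the counting is not known, so its reads cannot be told apart from those of Slc32a1. A p-value under 0.05 stands beside 103 of the 309 genes in the authors' deposited table, among them 72 of the 74 called here.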
